A study of Mus musculus with 12 samples.

Results

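The 54 genes described here encode the machinery of mitosis: the kinases and cyclins of mitotic entry, the spindle assembly checkpoint, the kinetochore, the spindle kinesins, condensin and the proteins of cytokinesis. They were chosen by name from what their products do and not from their levels, though earlier results of these data were known. All 54 were found among the 20661 genes of the count tables. The study asked how loss of the ARF tumor suppressor alters translation, and measured RNA by RNAseq and ribosome-protected fragments by ribosome profiling in mouse embryonic fibroblasts (MEFs). Each of 3 groups had 2 replicates per assay, which gave 12 libraries. Every group was at passage 4, was transduced with a lentivirus that carries a short hairpin RNA, and was selected with puromycin. WT-shSCR MEFs were wild type with the control hairpin shSCR, WT-shARF MEFs were wild type with a hairpin against ARF, and Arf-/--shSCR MEFs came from Arf knockout mice, in which the first exon of the ARF transcript of Cdkn2a is replaced, and carried shSCR. The labels give C57BL/6J for the wild type and B6.129X1-Cdkn2atm1Cjs/KaiJ for the knockout, while the study's methods name another wild-type strain, so genotype and strain cannot be told apart. Neither source says whether replicates were separate cultures, so the p-values below measure the spread between these libraries, which may be technical.

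ARF holds back the ubiquitin ligase Mdm2 and so stabilises p53, which in turn restrains the cell cycle. Most mitotic genes are transcribed in a wave late in the cycle and are silent in resting cells. That wave is known to be set by MuvB complexes, with DREAM as the repressor and B-Myb and FoxM1 as activators, which act through a promoter element called the cell cycle genes homology region (CHR), often with CCAAT boxes bound by NF-Y beside it. In a bulk culture, a larger share of cells in division and more RNA per dividing cell cannot be told apart.

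Promoter windows from RefSeq (GRCm38.p6, 250 bases before to 50 bases after each transcription start) were given for 44 of the 54 members. The CHR words TTTGAA or TTCGAA were looked for on both strands, and 33 of the 44 genes held 1 or more in a window, which is 75%, against 21.7% of all 27025 genes with a window. The word CCAAT, on either strand, stood in a window of 32 of 44 genes or 72.7%, against 41.1% of all genes. Both were present in the same window for 29 genes or 65.9%, against 8.61% of all. The E2F words TTTCCCGC, TTTGGCGC or TTTCGCGC stood in windows of 4 members (9.09%), against 2.12% of all. A match of letters is a description of the window and not a bound site. The 6 windows below are shown because they come from members with central roles, from mitotic entry to cytokinesis, and hold a CHR word. Each runs from 120 bases before to 30 bases after the start on the gene's own strand, with CHR words and CCAAT, read on either strand (TTCAAA and ATTGG are the reverse readings), in capitals.
Cdk1, chr10:69352883-69353032, minus strand: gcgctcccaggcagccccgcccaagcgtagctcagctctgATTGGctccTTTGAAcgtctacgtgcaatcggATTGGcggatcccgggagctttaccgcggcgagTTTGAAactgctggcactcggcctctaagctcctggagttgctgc
Cdc20, chr4:118437314-118437463, minus strand: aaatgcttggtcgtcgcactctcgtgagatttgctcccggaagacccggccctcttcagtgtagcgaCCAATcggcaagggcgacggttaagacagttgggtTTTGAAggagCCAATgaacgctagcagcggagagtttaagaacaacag
Kif11, chr19:37376262-37376411, plus strand: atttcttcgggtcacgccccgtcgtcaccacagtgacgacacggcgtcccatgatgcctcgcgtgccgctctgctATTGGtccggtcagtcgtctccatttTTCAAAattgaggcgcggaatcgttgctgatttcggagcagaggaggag
Kif23, chr9:61946770-61946919, minus strand: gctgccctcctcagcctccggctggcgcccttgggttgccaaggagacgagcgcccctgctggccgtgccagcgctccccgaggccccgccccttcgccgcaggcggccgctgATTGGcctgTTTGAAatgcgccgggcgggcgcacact
Top2a, chr11:99024160-99024309, minus strand: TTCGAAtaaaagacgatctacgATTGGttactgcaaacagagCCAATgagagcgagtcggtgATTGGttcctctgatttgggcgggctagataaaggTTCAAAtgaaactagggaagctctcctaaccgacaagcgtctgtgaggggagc
Mki67, chr7:135716350-135716499, minus strand: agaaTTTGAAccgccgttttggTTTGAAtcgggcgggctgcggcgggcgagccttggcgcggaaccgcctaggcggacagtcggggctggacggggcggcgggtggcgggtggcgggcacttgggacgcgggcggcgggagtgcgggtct

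Cdk1, Cdc20, Kif11 and Kif23 each held a CHR word close to the start with CCAAT beside or upstream of it, and Cdk1 held a further CHR word upstream. Top2a held 3 CCAAT words between a pair of CHR words. Mki67 held 2 CHR words and no CCAAT in the part shown. With 1 window per gene, the first listed, the 44 windows held 45 CHR matches, with a median position 5 bases before the start, and 31 of them began no more than 40 bases upstream of the start or lay after it. The 73 CCAAT matches lay further out, with a median 68 bases before the start. The members without a CHR word were Birc5, Ccnb1, Cenpe, Kif18a, Mad2l1, Mybl2, Ncaph, Nek2, Nuf2, Nusap1 and Pttg1. No window was given for Aurkb, Ccna2, Cdc25c, Cdca2, Foxm1, Incenp, Kif20a, Smc4, Spc24 and Tpx2.

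**Figure D1:**
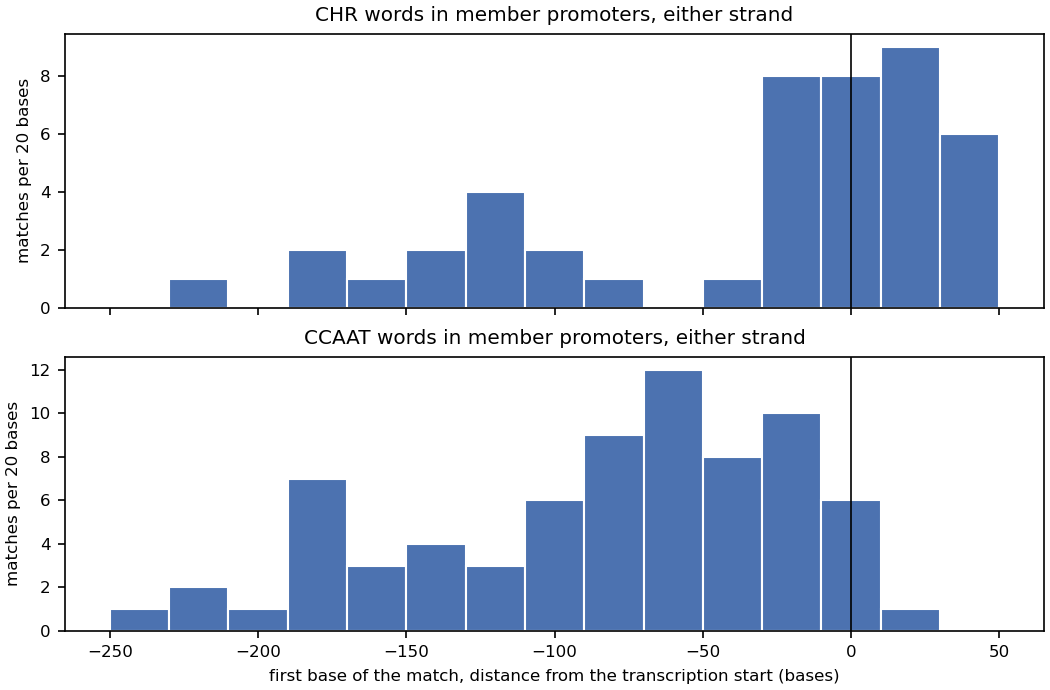
Number of CHR words (upper panel) and CCAAT words (lower panel) per 20 bases in the promoter windows of 44 members, 1 window each, by distance of the first base of the match from the transcription start. Of the 45 CHR matches 31 begin no more than 40 bases upstream or lie after the start, and of the 73 CCAAT matches 19 do.

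Reads on genes numbered 1578627 to 3989908 per RNAseq library and 2544319 to 5157572 per ribosome profiling library, of which the members took 5449 to 27812 and 9920 to 39030. Alignments that were not unique, and so left out of the counts, made up 79.22% to 81.38% of those in RNAseq and 46.34% to 52.92% in ribosome profiling. Cdkn2a, the gene that encodes ARF and INK4A, went against the label of the knockdown: its RNA rose from 45.1 and 42.2 CPM (counts scaled to library size by TMM, as edgeR gives them) in WT-shSCR to 648 and 672 CPM in both replicates labelled WT-shARF, and stood at 27.8 and 32.4 CPM in Arf-/--shSCR MEFs. Its footprints were at 93.7 and 66.4, 535 and 743 (638.5 ± 147, SD, n = 2), and 39.7 and 34.5 CPM in the same order, and the counts do not separate ARF from INK4A. Every direction given for WT-shARF therefore rests on the label. By the study's account, its immunoblot of ARF protein shows both the knockdown and the knockout, and it is not analysed here. All 10 fibroblast markers had reads in every group and assay, with summed RNA of 13600 to 18000 CPM, most of it from Col1a1, Col1a2 and Vim. Lum, Dcn and Pdgfra were near the floor in WT-shSCR, with 1 and 4, 8 and 3, and 10 and 4 RNA reads. Of the 10 macrophage markers, all had reads in WT-shSCR, with summed RNA of 499 and 517 CPM, against 265 and 176 CPM in WT-shARF and 54.6 and 77.7 CPM in Arf-/--shSCR MEFs, where Aif1 was at 0, and their summed footprints were at 659 and 618, 274 and 218, and 49.4 and 63 CPM in that order. The 8 epithelial and mesothelial markers summed to 97.3 CPM of RNA in both WT-shSCR replicates, 58.2 and 68.8 CPM in WT-shARF and 159 and 180 CPM in Arf-/--shSCR MEFs. The 6 endothelial markers summed to between 11.4 and 40.5 CPM in single libraries. The 6 skeletal muscle markers summed to 200 and 187 CPM of RNA in WT-shSCR, 109 and 91.9 CPM in WT-shARF and 152 and 185 CPM after knockout, and the 2 tested were called lower in both assays of WT-shARF, and 1 of them after knockout. In footprints after knockout, 4 of 10 fibroblast markers were called higher and 2 lower (edgeR), against 1027 and 961 of 10737 genes. In WT-shARF footprints 4 of 9 tested were called higher and 0 lower, against 580 and 567 of 10307 genes. The macrophage, epithelial and mesothelial, and muscle sums also differed between groups. Most of the epithelial and mesothelial RNA was Krt19, with means of 75.03 CPM in WT-shSCR, 46.06 CPM in WT-shARF and 95 CPM after knockout. Krt8, Cdh1 and Msln did not fall in WT-shARF, but were near the floor there and in WT-shSCR. After knockout, mean RNA rose from 0.57 to 17.49 CPM for Krt8 and from 1.08 to 15.98 CPM for Upk3b. Epcam and Cdh1 RNA stayed near the floor in every group. The part of any marker list in the results was not tested.

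Relative to other genes, the mitosis genes were higher in Arf-/--shSCR than in WT-shSCR MEFs, as RNA and as footprints, and none was called lower. CPM and the fits below do not measure a change in total RNA or total translation. The study added yeast lysate as a spike-in but left it out of its normalization. Their summed RNA was 3520 and 3535 CPM in the WT-shSCR replicates, 7667 and 7171 CPM in Arf-/--shSCR and 6700 and 6553 CPM in WT-shARF MEFs. Their summed footprints were 3409 and 3920 CPM, 7528 and 7337 CPM, and 6769 and 6572 CPM in the same order. Both ARF groups lay above both controls in each assay, with group means 2.1-fold and 1.88-fold of WT-shSCR in RNA and 2.03-fold and 1.82-fold in footprints.

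After knockout, 44 of 54 members rose in RNA and 0 fell (edgeR's quasi-likelihood test, Benjamini-Hochberg adjusted p under 0.05 over all genes tested), where 3.94% of the 10659 genes tested were called higher. At an unadjusted p under 0.05, 51 were higher and 0 lower, against 11% and 11.3% of all genes, and DESeq2 called 39 higher and 0 lower. The median log2 fold change of the members was 1.17 (2.26-fold), with a range from -0.03 to 1.87, against 0.00 over all genes. In footprints, 52 of 54 rose and 0 fell, against 9.57% of 10737 genes called higher, with a median of 1.07 (2.1-fold) and a range from 0.41 to 1.66, and DESeq2 called 45 higher and 0 lower. Over all genes tested, 425 were called lower in RNA and 961 in footprints. Both knockout replicates lay above both controls for 53 members in RNA, against 25.3% of all genes, and for 53 in footprints, against 27.5%. In RNA, the fits that left out 1 of the 4 libraries gave a members' median of 1.128 to 1.231, with fewer members called. Without either footprint library of WT-shSCR the edgeR fit of these groups called no gene among 11391 or 11340 tested, with 48 and 50 members at an unadjusted p under 0.05, and with all 3 groups in one fit the footprint count was 43 to 49 whichever library was left out.

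In the libraries labelled WT-shARF, 41 of 54 members rose in RNA and 0 fell, against 3.11% of 10503 genes called higher, with a median log2 fold change of 1.04 (2.05-fold) and a range from -0.58 to 1.64. In footprints 47 rose and 0 fell, against 5.63% of 10307 genes, with a median of 0.96 (1.94-fold) and a range from 0.22 to 1.46. No member was lower at an unadjusted p under 0.05 in either assay, and DESeq2 called 37 and 41 higher and 0 lower. Over all genes tested, 438 were called lower in RNA and 567 in footprints. Both WT-shARF replicates lay above both controls for 50 members in RNA, against 25% of all genes, and for 52 in footprints, against 25.4%. In RNA, the fits of 2 groups with 1 library left out gave a members' median of 1.004 to 1.07. Fewer members were called without WT-shSCR replicate 1 when all groups were in one fit. The knockout and WT-shARF were set against one pair of controls, so their comparisons are given side by side and are not independent. Pttg1 was called in none of the 4.

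**Figure D2:**
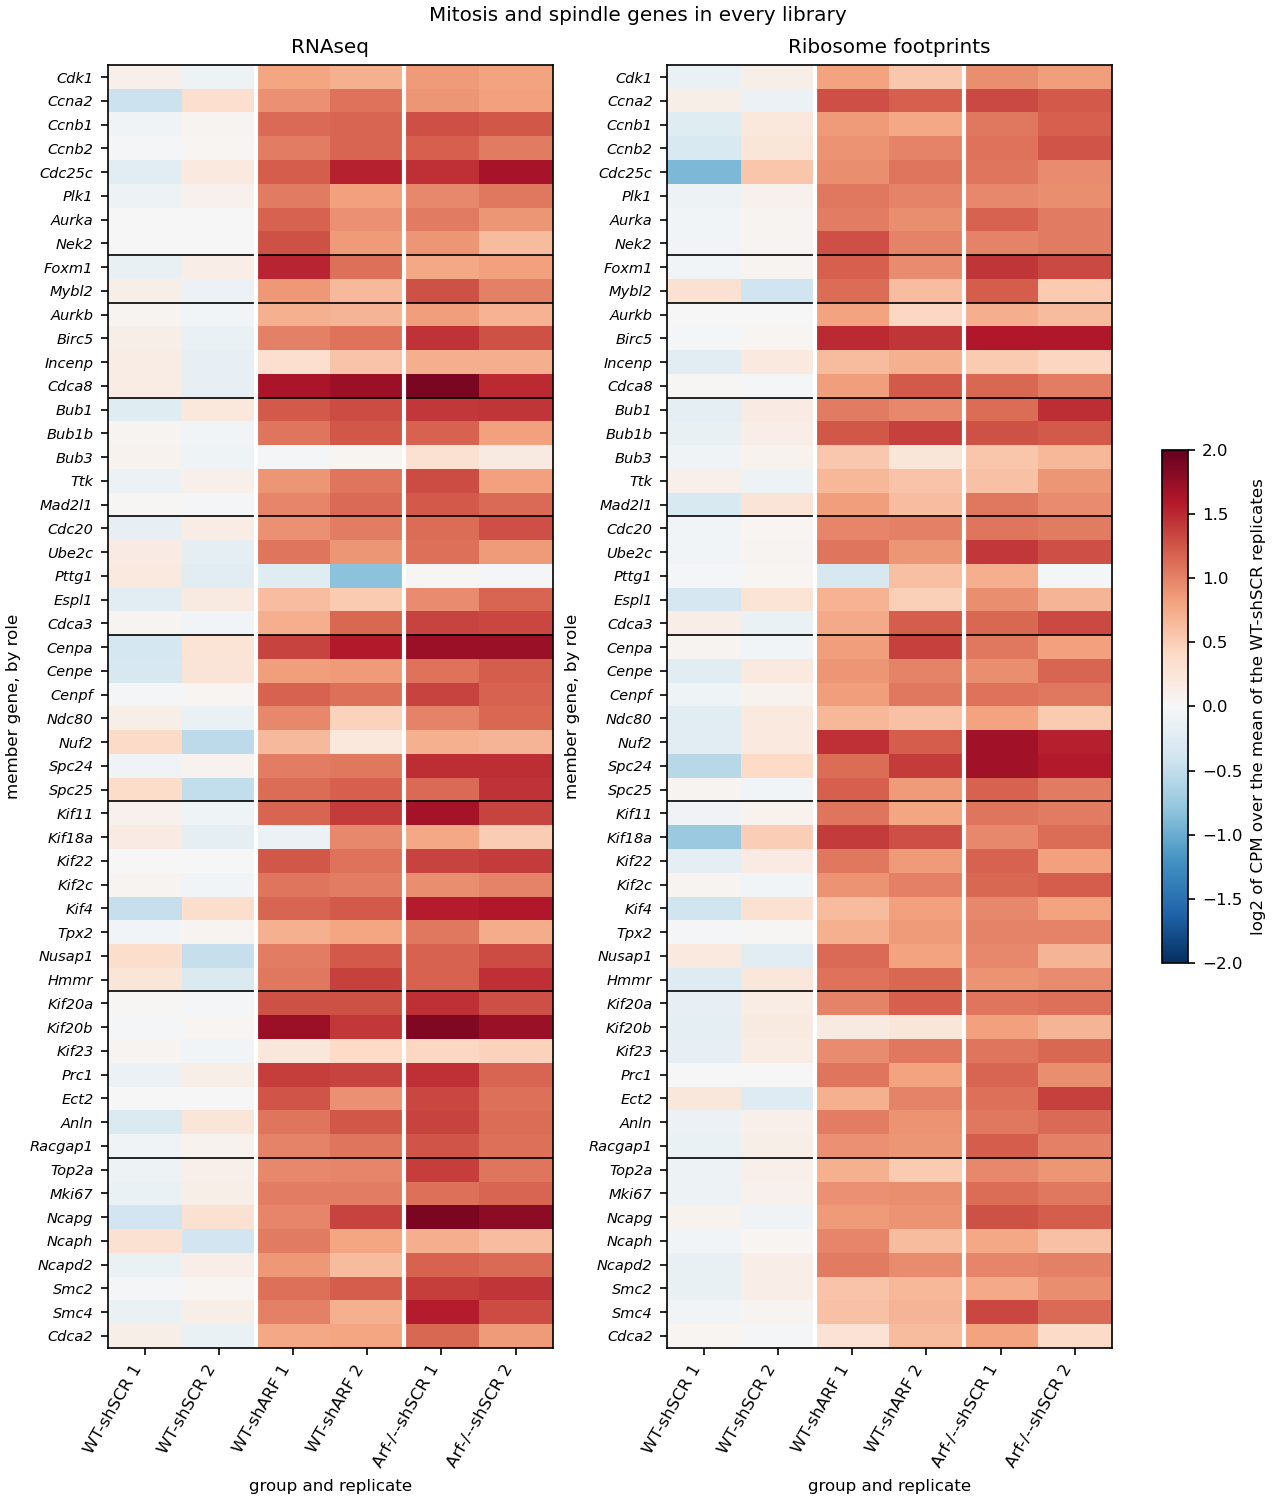
Log2 of each member's CPM over the mean of the WT-shSCR replicates, for 6 RNAseq libraries (left) and 6 ribosome profiling libraries (right), with horizontal lines between roles. Nearly all members are red in the 4 libraries of the ARF groups, and Bub3, Pttg1, Nuf2 and Kif18a in RNA, and Pttg1 and Kif20b in footprints, are the exceptions in which these libraries do not all lie above both controls.

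The kinases and cyclins of mitotic entry were called in most comparisons, with 7 of 8 called in RNA and 8 of 8 in footprints after knockout, and 8 and 7 in WT-shARF. Cdk1, the kinase that drives cells into mitosis, had 169 and 147 CPM of RNA in WT-shSCR, 272 and 258 CPM in WT-shARF and 287 and 277 CPM in Arf-/--shSCR MEFs. Its footprints stood at 179 and 213, 344 and 286, and 375 and 349 CPM in the same order of groups. No library of an ARF group overlapped the controls, and the log2 fold change after knockout was 0.83 in RNA (SE 0.15, adjusted p = 0.00183, edgeR) and 0.90 in footprints (SE 0.11, adjusted p = 2.47e-07). This was below the members' median in RNA. Ccnb1, the cyclin that activates Cdk1, went from 80.3 and 87.6 CPM to 183 and 187 CPM in WT-shARF and 206 and 198 CPM after knockout in RNA, and from 103 and 141 CPM to 221 and 210 CPM and 254 and 280 CPM in footprints. All ARF libraries were above the controls, with a log2 fold change after knockout of 1.27 in RNA (SE 0.17) and 1.15 in footprints (SE 0.13). Ccna2, a cyclin of S phase and early mitosis, showed the widest gap between control replicates among this role in RNA, at 72.7 and 123 CPM, and stood at 184 and 208 CPM in WT-shARF and 181 and 172 CPM after knockout. Its footprints were tighter, at 82.5 and 70.3 CPM in WT-shSCR, 187 and 176 CPM in WT-shARF and 191 and 178 CPM after knockout, a log2 rise of 1.28 (SE 0.14). Plk1, a kinase of centrosome maturation and spindle assembly, had 82.9 and 94.7 CPM of RNA in WT-shSCR, 183 and 156 CPM in WT-shARF and 172 and 184 CPM after knockout, with 107 and 121, 236 and 226, and 223 and 218 CPM of footprints. No ARF library overlapped the controls in either assay, and the ARF groups overlapped each other in RNA.

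Nek2, a kinase that lets centrosomes part, was the member of this role that missed the threshold in RNA after knockout. Its RNA counted 24.2 and 24.7 CPM in WT-shSCR, 58.8 and 44.1 CPM in WT-shARF and 45.0 and 38.0 CPM after knockout, a log2 fold change of 0.77 (SE 0.26, adjusted p = 0.0785, edgeR), while its footprints rose by 1.03 (SE 0.22, adjusted p = 0.000725). Cdc25c, the phosphatase that activates Cdk1, missed it in the footprints of WT-shARF (log2 fold change 1.03, SE 0.39, adjusted p = 0.0867), where its control replicates stood far apart at 5.92 and 16.2 CPM. Ccnb2 and Aurka, which encode cyclin B2 and the spindle pole kinase Aurora A, passed in both assays of both comparisons, with log2 fold changes between 0.95 and 1.2.

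Both transcription factors rose in RNA, and both in footprints after knockout. Foxm1, an activator of late cell cycle genes, had 33.3 and 40.9 CPM of RNA in WT-shSCR, 107 and 79.6 CPM in WT-shARF and 63.3 and 65.6 CPM after knockout, a log2 rise of 1.32 in WT-shARF (SE 0.21) and 0.81 after knockout (SE 0.22, adjusted p = 0.0304, edgeR). In footprints the order of the ARF groups was turned, at 21.7 and 23.3 CPM in WT-shSCR, 51.4 and 43.4 CPM in WT-shARF and 60.4 and 56.2 CPM after knockout. The direct comparison of knockout with WT-shARF did not pass in either assay (log2 fold change -0.52, SE 0.19, adjusted p = 0.175 in RNA, and 0.31, SE 0.17, adjusted p = 0.307 in footprints). Mybl2, which encodes B-Myb, had 37.5 and 31.8 CPM of RNA in WT-shSCR, 63.1 and 54.4 CPM in WT-shARF and 83.5 and 69.5 CPM after knockout, called in both comparisons. Its footprints were sparse, at 19.4 and 11.9 CPM, 34.0 and 23.9 CPM, and 36.3 and 22.5 CPM, and passed after knockout (log2 fold change 0.91, SE 0.30, adjusted p = 0.0329) but not in WT-shARF (0.86, SE 0.32, adjusted p = 0.0805). The RNA call in WT-shARF held in 7 of 16 alternatives (adjusted p up to 0.276, edgeR or DESeq2), and the footprint rise after knockout was 0.53 without knockout replicate 1 (adjusted p = 0.518) and was called in 10 of 16.

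The chromosomal passenger complex, which corrects faulty attachments of chromosomes to the spindle, was uneven. Birc5, which encodes survivin, had 30.3 and 25.3 CPM of RNA in WT-shSCR, 56.1 and 59.1 CPM in WT-shARF and 75.4 and 67.4 CPM after knockout. Its footprints rose further than those of most members, from 26.9 and 28.5 CPM to 78.1 and 74.4 CPM in WT-shARF (log2 fold change 1.46, SE 0.21) and 84.5 and 84.1 CPM after knockout (1.62, SE 0.19, adjusted p = 6.77e-08, edgeR). Cdca8, which encodes borealin, showed the largest RNA rise among members in WT-shARF, from 24.2 and 19.5 CPM to 68.0 and 71.4 CPM (log2 fold change 1.64, SE 0.23), and stood at 80.9 and 61.8 CPM after knockout. Its footprints went from 38.8 and 37.5 CPM to 68.0 and 88.9 CPM in WT-shARF and 84.5 and 77.3 CPM after knockout, a smaller rise of 1.05 and 1.10. Aurkb, the kinase of the complex, had 29.5 and 27.2 CPM of RNA in WT-shSCR, 46.4 and 45.5 CPM in WT-shARF and 50.9 and 46.2 CPM after knockout, with no overlap, yet the RNA fits missed the threshold after knockout (log2 fold change 0.77, SE 0.24, adjusted p = 0.0584) and in WT-shARF (0.68, SE 0.23, adjusted p = 0.0712). Aurkb footprints were at 32.2 and 32.8, 56.8 and 43.4, and 54 and 50.4 CPM, and were called after knockout only, a call that held in 7 of 16 alternatives (edgeR or DESeq2, adjusted p = 0.00779 to 0.162). Incenp, the scaffold of the complex, had its smallest RNA estimates (0.71, SE 0.20, after knockout, and 0.45, SE 0.20, adjusted p = 0.178, edgeR, in WT-shARF), with 60.2 and 48.7 CPM of RNA in WT-shSCR, 68.5 and 80.8 CPM in WT-shARF and 90.4 and 89.8 CPM after knockout, and footprints of 60.8 and 81.0, 110 and 116, and 102 and 95.2 CPM. Its footprint rise after knockout, 0.50 (SE 0.16), was 0.31 without WT-shSCR replicate 1 (adjusted p = 0.301).

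In the spindle assembly checkpoint, which delays anaphase until every chromosome is attached, Bub1, Bub1b and Mad2l1 passed in both assays of both comparisons. Bub1b, which encodes the checkpoint protein BubR1, had 75 and 70.1 CPM of RNA in WT-shSCR, 153 and 171 CPM in WT-shARF and 164 and 129 CPM after knockout, with footprints of 42.7 and 51.8, 111 and 123, and 114 and 111 CPM. The ARF groups overlapped each other and not the controls, and the footprint rise was 1.32 in WT-shARF (SE 0.17) and 1.27 after knockout (SE 0.16). Bub3, the partner that brings BubR1 to the kinetochore and that also serves outside mitosis, passed in neither RNA comparison, with 181 and 162 CPM in WT-shSCR, 168 and 176 CPM in WT-shARF and 212 and 194 CPM after knockout. Its log2 fold change in RNA was -0.01 in WT-shARF (SE 0.15) and 0.24 after knockout (SE 0.16, adjusted p = 0.387, edgeR), and the first of these changed sign with the library left out. In footprints Bub3 had 119 and 131 CPM in WT-shSCR, 182 and 149 CPM in WT-shARF and 183 and 197 CPM after knockout, and was called in both (0.40, SE 0.13, adjusted p = 0.0443, and 0.62, SE 0.13, adjusted p = 0.000504). Ttk, which encodes the checkpoint kinase Mps1, was called in the footprints after knockout alone, from 27.3 and 23.7 CPM to 38.2 and 46.9 CPM.

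Of the genes that trigger anaphase or act with its ubiquitin ligase, 4 of 5 rose in each assay after knockout, and 3 and 4 rose in RNA and footprints of WT-shARF. Cdc20, the activator of the anaphase-promoting complex, had 134 and 166 CPM of RNA in WT-shSCR, 282 and 306 CPM in WT-shARF and 324 and 366 CPM after knockout. Its footprints stood at 128 and 137, 260 and 267, and 277 and 273 CPM. These groups were far apart for the spread between replicates, with a log2 rise after knockout of 1.21 in RNA (SE 0.16, adjusted p = 8.38e-05, edgeR) and 1.07 in footprints (SE 0.12, adjusted p = 2.71e-08). Ube2c, the ubiquitin-conjugating enzyme that works with that complex, had 68.5 and 53.2 CPM of RNA in WT-shSCR, 128 and 112 CPM in WT-shARF and 130 and 109 CPM after knockout, and 71.0 and 76.7, 155 and 136, and 196 and 181 CPM of footprints. Pttg1, which encodes securin, the inhibitor of separase, had few reads and passed in no comparison. Its RNA was at 18.2 and 13.6 CPM in WT-shSCR, 13.5 and 8.95 CPM in WT-shARF and 16.1 and 15.6 CPM after knockout, and its footprints at 10.2 and 10.7, 8.32 and 15.8, and 17.2 and 10.3 CPM. All these groups overlapped except WT-shARF in RNA, which lay below WT-shSCR, and the intervals were wide (log2 fold change in RNA -0.58, SE 0.40, adjusted p = 0.441 in WT-shARF, and -0.03, SE 0.36, adjusted p = 0.975 after knockout). Espl1, which encodes separase itself, rose after knockout by 1.07 in RNA (SE 0.20) and 0.83 in footprints (SE 0.17).

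The kinetochore genes, whose products tie chromosomes to microtubules, had 6 of 7 called in RNA and 7 of 7 in footprints after knockout, and 3 and 7 in WT-shARF. Cenpe, a kinesin that moves chromosomes to the spindle equator, had 44.7 and 66.8 CPM of RNA in WT-shSCR, 99.8 and 101 CPM in WT-shARF and 118 and 129 CPM after knockout, with footprints of 80.5 and 107, 173 and 186, and 179 and 211 CPM. Cenpa, the histone H3 variant that marks the centromere, rose by more in RNA than most members, from 15.1 and 23.4 CPM to 49.1 and 58.0 CPM in WT-shARF and 63.3 and 63.5 CPM after knockout (log2 fold change 1.76, SE 0.26, adjusted p = 0.000225, edgeR). Its footprints went from 18.7 and 17.4 CPM to 32.2 and 46.5 CPM and 37.6 and 31.8 CPM, a rise of 0.95 after knockout (SE 0.26). Among the Ndc80 complex, which grips the microtubule end, Spc24 had 10.6 and 11.7 CPM of RNA in WT-shSCR, 22.7 and 23.1 CPM in WT-shARF and 31.1 CPM in both knockout replicates, and showed the largest footprint rise of all members after knockout, from 9.20 and 17.8 CPM to 43.2 and 40.3 CPM (1.66, SE 0.28). This footprint rise was 1.25 without WT-shSCR replicate 1 and 2.19 without replicate 2. With no library left out, Nuf2 (1.64) and Birc5 (1.62) came close to it. Spc24 missed the threshold in RNA of WT-shARF (1.04, SE 0.35, adjusted p = 0.0633). Ndc80 and Spc25 had log2 fold changes of 0.63 to 1.23 and passed in both footprint comparisons, while neither passed in RNA of WT-shARF and Spc25 did not in RNA after knockout.

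Nuf2, of the same complex, stood apart in level. Its RNA was at 420 and 223 CPM in WT-shSCR, 501 and 371 CPM in WT-shARF and 523 and 514 CPM after knockout, while its footprints were at 22.7 and 30.4, 73.4 and 61.5, and 85.3 and 77.9 CPM. Per kilobase of coding sequence this was 218 CPM of RNA against 18.1 CPM of footprints in WT-shSCR. Replicates differed most in the controls, where 1108 and 343 RNA reads lay behind the values, and WT-shARF overlapped WT-shSCR in RNA. The footprints did not overlap and rose by 1.64 after knockout (SE 0.20, adjusted p = 1.35e-07, edgeR) and 1.35 in WT-shARF (SE 0.22), against 0.68 (SE 0.20, adjusted p = 0.0462) and 0.41 (SE 0.18, adjusted p = 0.177) in RNA. No other annotated exon overlaps the coding sequence of Nuf2 in the basic set of GENCODE M21, and what else its RNA reads could hold was not tested.

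The spindle kinesins and assembly factors had 6 of 8 called in RNA and 7 of 8 in footprints after knockout, and 6 and 8 in WT-shARF. Kif11, the motor that pushes the spindle poles apart, had 32.9 and 29.2 CPM of RNA in WT-shSCR, 69.6 and 81.5 CPM in WT-shARF and 98.1 and 79.5 CPM after knockout. Its footprints were at 58.2 and 63.6, 127 and 105, and 128 and 125 CPM. The rise after knockout was 1.5 in RNA (SE 0.22) and 1.07 in footprints (SE 0.15), with no overlap. Tpx2, which starts microtubule growth near chromosomes, had 113 and 121 CPM of RNA in WT-shSCR, 190 and 202 CPM in WT-shARF and 244 and 196 CPM after knockout, and footprints of 126 and 130, 211 and 231, and 255 CPM in both knockout replicates. Kif22, a motor that rides on chromosome arms, had 48.8 and 48.7 CPM of RNA in WT-shSCR, 116 and 103 CPM in WT-shARF and 125 and 129 CPM after knockout, and footprints of 48.6 and 61.3, 114 and 99.3, and 125 and 96.9 CPM. Kif18a, a motor that damps chromosome movement, had few RNA reads, at 9.84 and 7.78 CPM in WT-shSCR, 8.09 and 17.2 CPM in WT-shARF and 15.0 and 12.5 CPM after knockout, and WT-shARF overlapped the controls. Its footprints were at 5.26 and 12.3, 23.2 and 21.4, and 17.0 and 19.0 CPM, called in WT-shARF (log2 fold change 1.37, SE 0.40, adjusted p = 0.0202, edgeR) and not after knockout (1.08, SE 0.39, adjusted p = 0.0514). Without WT-shSCR replicate 1 the WT-shARF value was 0.85 (adjusted p = 0.203) and without replicate 2 it was 2.07 (adjusted p = 0.00101), and the call held in 11 of 16 alternatives. Hmmr, Kif2c and Kif4 passed in all 4 comparisons with WT-shSCR, and Nusap1, a microtubule bundler, in the footprints alone.

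**Figure D3:**
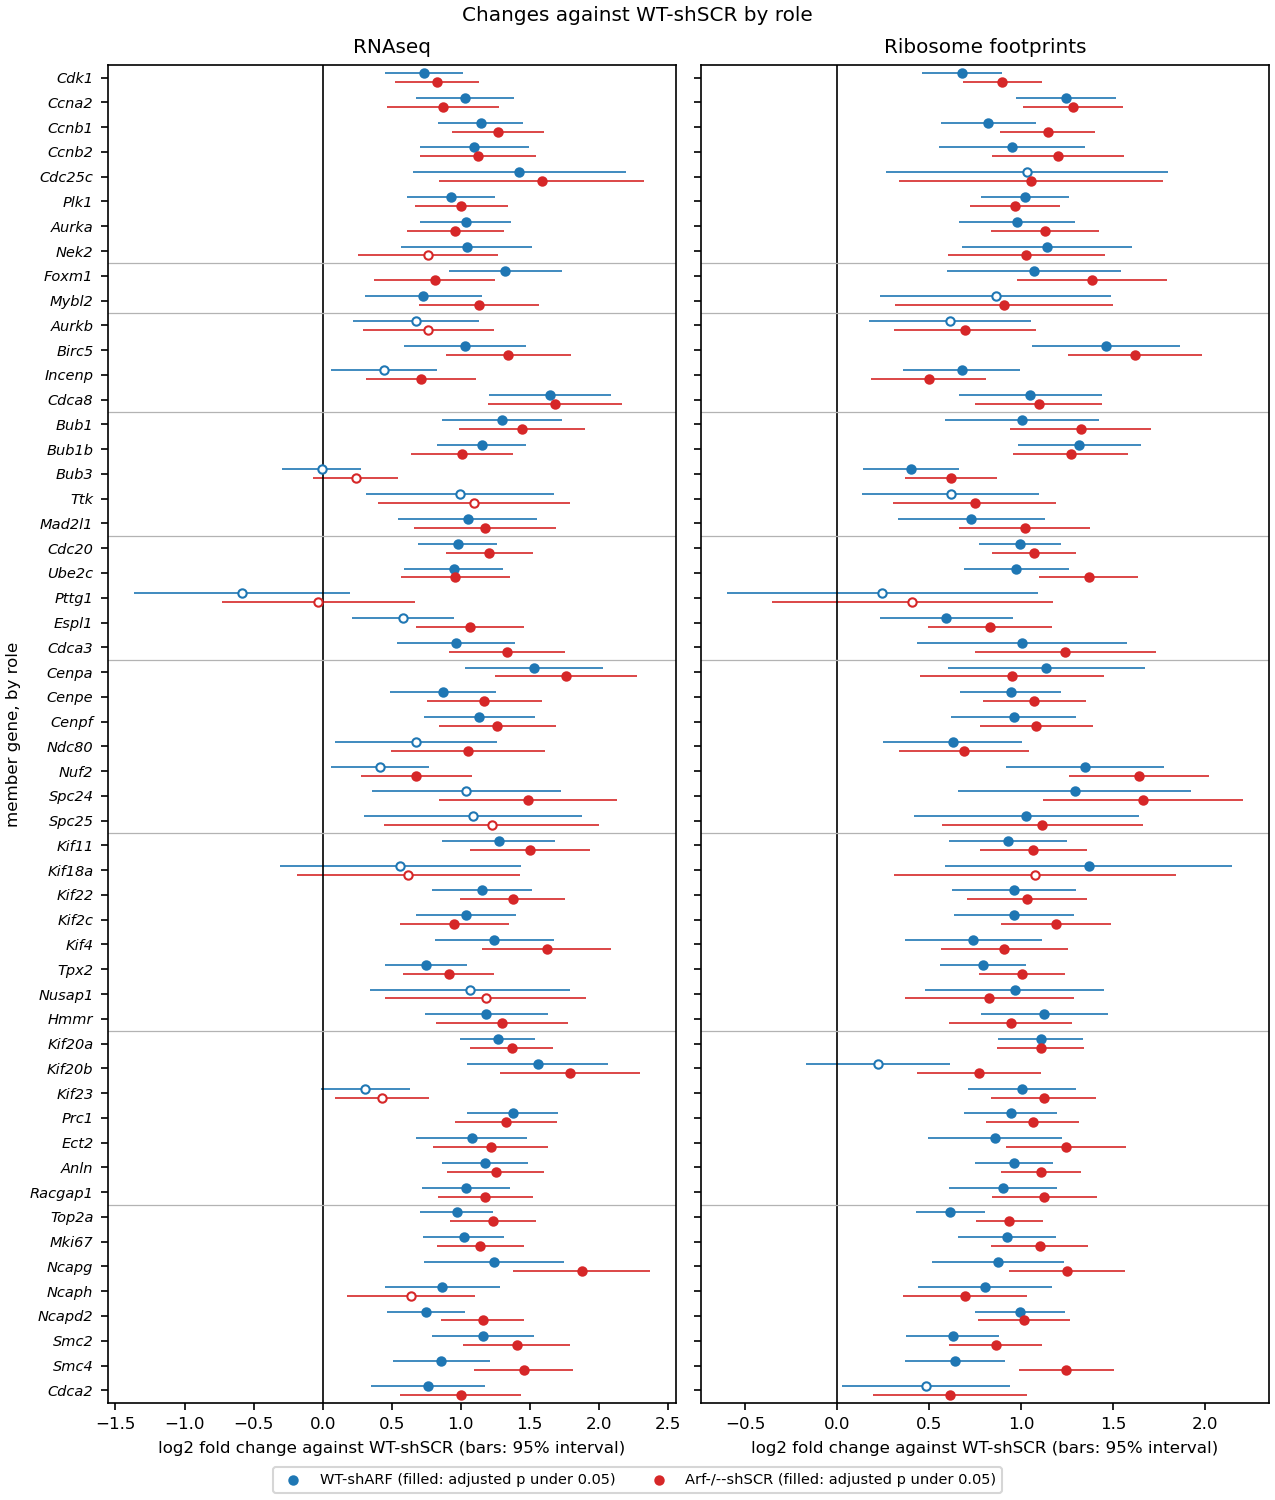
Log2 fold change against WT-shSCR with its nominal 95% interval for each member, in RNAseq (left) and ribosome footprints (right). Arf-/--shSCR is in red and libraries labelled WT-shARF in blue. Filled points passed an adjusted p under 0.05. Most points lie near 1. Among those nearer 0 are Bub3 and Kif23 in RNA, Pttg1 in RNA after knockout, and Pttg1 and Kif20b in the footprints of WT-shARF. Pttg1 in RNA of WT-shARF lies below 0, at -0.58.

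The genes of the central spindle and cytokinesis, which divide the cell after the chromosomes part, had 6 of 7 called in RNA and 7 of 7 in footprints after knockout, and 6 in each assay in WT-shARF. Kif20a, a kinesin of the central spindle, had the smallest RNA p-value of the members in both comparisons. It counted 144 and 140 CPM in WT-shSCR, 344 CPM in both WT-shARF replicates and 389 and 346 CPM after knockout (log2 fold change 1.37, SE 0.15, adjusted p = 1.31e-05, edgeR), and its footprints 127 and 156, 280 and 325, and 298 and 304 CPM. Its coding sequence overlaps exons of Cdc23 on the other strand, as do those of Ncapg (Lcorl), Ube2c (Tnnc2), Kif4 (Pdzd11), Plk1 (Gm44985) and Nek2 (Gm38037) with the genes in brackets. The example counting command in the study's methods sets no strand option, for which HTSeq's default counts by strand, and whether the libraries kept strand was not tested. Prc1, which bundles the central spindle, went from 60.6 and 71.4 CPM of RNA to 173 and 169 CPM in WT-shARF and 182 and 148 CPM after knockout, with footprints of 106 CPM in both WT-shSCR replicates, 224 and 186 CPM, and 237 and 203 CPM. Anln, which encodes anillin of the contractile ring, had 100.3 and 144 CPM of RNA in WT-shSCR, 257 and 289 CPM in WT-shARF and 313 and 264 CPM after knockout, and footprints of 156 and 181, 342 and 313, and 349 and 370 CPM. Racgap1, a subunit of centralspindlin, had 75 and 82.4, 157 and 166, and 188 and 168 CPM of RNA in that order, and 67.4 and 80.2, 139 and 136, and 171 and 148 CPM of footprints. None of these 4 overlapped with the controls in any ARF group.

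Kif23, the motor subunit of centralspindlin and the partner of Racgap1, had a smaller estimate in RNA than in footprints, a gap that did not pass the test of TE given further on. Its RNA had 105 and 96.7 CPM in WT-shSCR, 118 and 132 CPM in WT-shARF and 134 and 139 CPM after knockout, a log2 fold change of 0.31 (SE 0.16, adjusted p = 0.282, edgeR) and 0.43 (SE 0.17, adjusted p = 0.145). Its footprints went from 64.1 and 79.0 CPM to 137 and 149 CPM and 150 and 159 CPM, a rise of 1.01 (SE 0.15, adjusted p = 1.31e-05) and 1.12 (SE 0.15, adjusted p = 7.08e-07). Kif20b, a kinesin of late cytokinesis, had the larger estimate in RNA, and this gap did not pass either. Its RNA was at 15.9 and 16.9 CPM in WT-shSCR, 53.9 and 43.8 CPM in WT-shARF and 59.3 and 54 CPM after knockout, a rise of 1.56 (SE 0.26) and 1.79 (SE 0.26), while its footprints were at 44.0 and 57.3, 57.2 and 60.2, and 89.5 and 81.4 CPM, a change of 0.22 (SE 0.20, adjusted p = 0.563) in WT-shARF and a rise of 0.77 (SE 0.17, adjusted p = 0.00125) after knockout. WT-shARF overlapped WT-shSCR in the footprints of Kif20b and in no other reading of it.

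**Figure D4:**
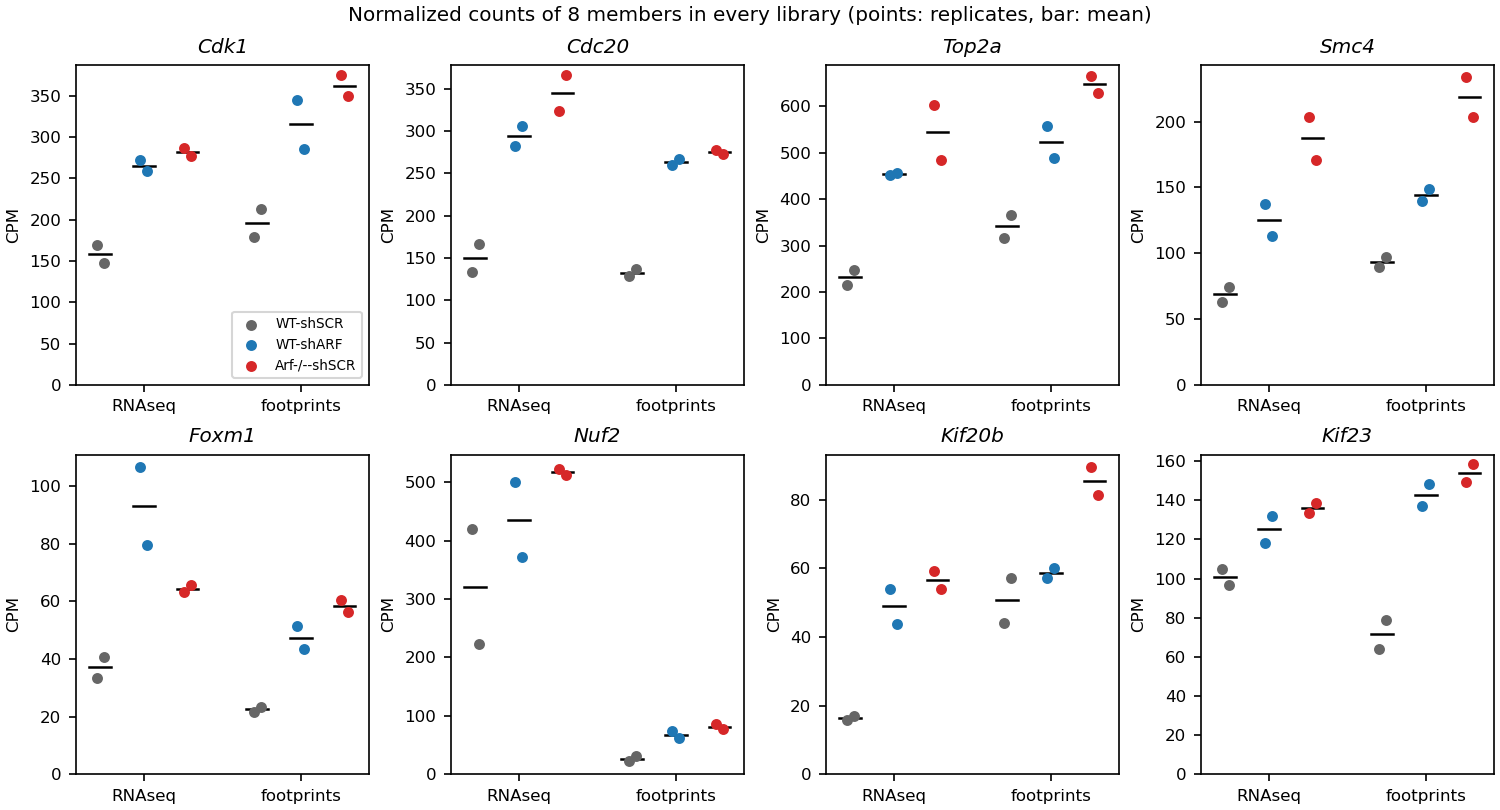
CPM of 8 members in each library, with points for the 2 replicates and a bar for their mean, in WT-shSCR (grey), libraries labelled WT-shARF (blue) and Arf-/--shSCR (red) MEFs. Cdk1, Cdc20, Top2a and Smc4 rise in both assays, Nuf2 has higher CPM in RNA than in footprints, and the groups lie further apart in RNA for Kif20b and in footprints for Kif23.

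Among the genes of chromosome structure, 7 of 8 were called in RNA and 8 of 8 in footprints after knockout, and 8 and 7 in WT-shARF. Top2a, the topoisomerase that untangles sister chromatids, had 215 and 248 CPM of RNA in WT-shSCR, 452 and 455 CPM in WT-shARF and 603 and 484 CPM after knockout. Its footprints were at 317 and 366, 557 and 488, and 665 and 629 CPM. All groups were separate in both assays, with a rise after knockout of 1.24 in RNA (SE 0.16) and 0.94 in footprints (SE 0.09, adjusted p = 4.13e-09, edgeR). Mki67, which encodes the proliferation marker Ki-67, had 106 and 127 CPM of RNA in WT-shSCR, 235 CPM in both WT-shARF replicates and 250 and 260 CPM after knockout, and footprints of 83.8 and 95.2, 169 and 170, and 195 and 186 CPM, with no overlap of either ARF group with the controls.

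Condensin, the complex that compacts mitotic chromosomes, was measured through Smc2, Smc4, Ncapg, Ncaph and Ncapd2. Ncapg showed the largest RNA rise of all members after knockout, from 17.0 and 27.2 CPM to 81.3 and 76.4 CPM (log2 fold change 1.87, SE 0.25, adjusted p = 8.64e-05, edgeR), and stood at 43.7 and 56.6 CPM in WT-shARF. Its footprints were at 48.0 and 43.9, 82.8 and 85.6, and 111 and 106 CPM in controls, WT-shARF and knockout. Smc4 had 62.9 and 74.6, 138 and 113, and 204 and 171 CPM of RNA, and 89.4 and 96.8, 140 and 149, and 234 and 203 CPM of footprints in that order. For Ncapg and Smc4, and for Smc2 below, all 3 groups were separate in both assays, with knockout highest. In RNA, both knockout replicates lay above both WT-shARF replicates for 30 of 54 members, against 2504 of 10632 genes. In footprints they did for 25 members, against 2758 of 10941 genes. Smc2, which pairs with Smc4, had 43.9 and 46.7, 97.1 and 105, and 118 and 122 CPM of RNA, and 107 and 129, 175 and 187, and 199 and 224 CPM of footprints. Ncapd2 had 177 and 213, 355 and 303, and 443 and 426 CPM of RNA, and 103 and 126, 236 and 220, and 226 and 231 CPM of footprints, so that knockout lay above WT-shARF in RNA and overlapped it in footprints. Ncaph, the subunit that closes the condensin ring, missed the threshold in RNA after knockout (0.64, adjusted p = 0.107) and passed in the other 3 comparisons with WT-shSCR, with rises of 0.69 to 0.87.

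Across members the SD of the log2 fold change after knockout was 0.37 in RNA and 0.26 in footprints, against a median SE of 0.21 and 0.17. In RNA the nominal 95% interval of 43 members held the members' median. It lay below the median for Bub3, Cdk1, Incenp, Kif23, Ncaph, Nuf2 and Pttg1, and above it for Cdca8, Cenpa, Kif20b and Ncapg. In footprints 45 intervals held it, those of Bub3, Cdca2, Incenp, Ncaph and Ndc80 lay below, and those of Birc5, Nuf2, Spc24 and Ube2c lay above. By role, the median RNA change after knockout ran from 0.97 for the transcription factors and 0.98 for the entry kinases and cyclins to 1.24 for the spindle kinesins and 1.25 for cytokinesis, and the median footprint change from 0.90 for the passenger complex to 1.15 for the transcription factors. The differences between roles were not tested.

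Some calls of the members named above rested on single libraries. In RNA after knockout, Foxm1 missed the threshold with any 1 of the 4 libraries left out (edgeR, adjusted p up to 0.253), Bub1b without either WT-shSCR replicate, Cenpe and Plk1 without WT-shSCR replicate 1, and Cdk1 and Mybl2 without WT-shSCR replicate 2. In RNA of WT-shARF, Cenpe missed it without WT-shSCR replicate 1, Birc5 and Ncapg without WT-shARF replicate 2, and Mybl2 without WT-shSCR replicate 2 or either WT-shARF replicate. In footprints after knockout, Aurkb and Incenp missed it without either knockout replicate, and without either WT-shSCR replicate 0 members were called. In footprints of WT-shARF, Kif18a missed it without WT-shSCR replicate 1 or either WT-shARF replicate.

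TE, the footprint change relative to the RNA change, showed no member past the threshold in either comparison. After knockout 0 of 54 members were called in TE by edgeR and 0 by DESeq2, against 0.194% of 11314 genes by edgeR. At an unadjusted p under 0.05, 2 were higher (3.7%, against 2.88% of all genes) and 5 lower (9.26%, against 3.95%). In WT-shARF 0 were called by either tool, against 0.0354% of 11289 genes, with 3 higher and 3 lower at an unadjusted p under 0.05 (5.56% each, against 3.81% and 2.84% of all genes). The members' median log2 change of TE was -0.16 after knockout and -0.06 in WT-shARF, beside -0.04 and 0.01 over all genes. The SE of a member's TE change was 0.17 to 0.61, and shifts of TE within these errors were not detectable at this depth. For Cdk1 the interval of the TE change after knockout ran from -0.33 to 0.40, and for Kif20a from -0.67 to 0.07.

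The TE estimates furthest from 0 belonged to Nuf2 and Kif20b. Nuf2 had a log2 TE change of 0.94 after knockout (SE 0.30, adjusted p = 0.352, edgeR) and 0.95 in WT-shARF (SE 0.29, adjusted p = 0.332). With the WT-shSCR RNA library of replicate 2 left out, or without a filter on low counts, Nuf2 alone passed in both comparisons, with adjusted p-values over all alternatives of 0.000551 to 0.725 and 0.0021 to 0.882. Kif20b had the lowest TE changes, -1.05 after knockout (SE 0.31, adjusted p = 0.274) and -1.32 in WT-shARF (SE 0.33, adjusted p = 0.151). Kif23 was at 0.66 (SE 0.22, adjusted p = 0.403) and 0.71 (SE 0.23, adjusted p = 0.411), Cenpa at -0.84 after knockout (SE 0.36, adjusted p = 0.635), Cdca8 at -0.58 (SE 0.31, adjusted p = 0.777) and Pttg1 at 0.84 (SE 0.59, adjusted p = 0.835) in WT-shARF. For 44 of 54 members after knockout and 46 in WT-shARF the RNA and footprint estimates lay within 0.5 of each other on the log2 scale.

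**Figure D5:**
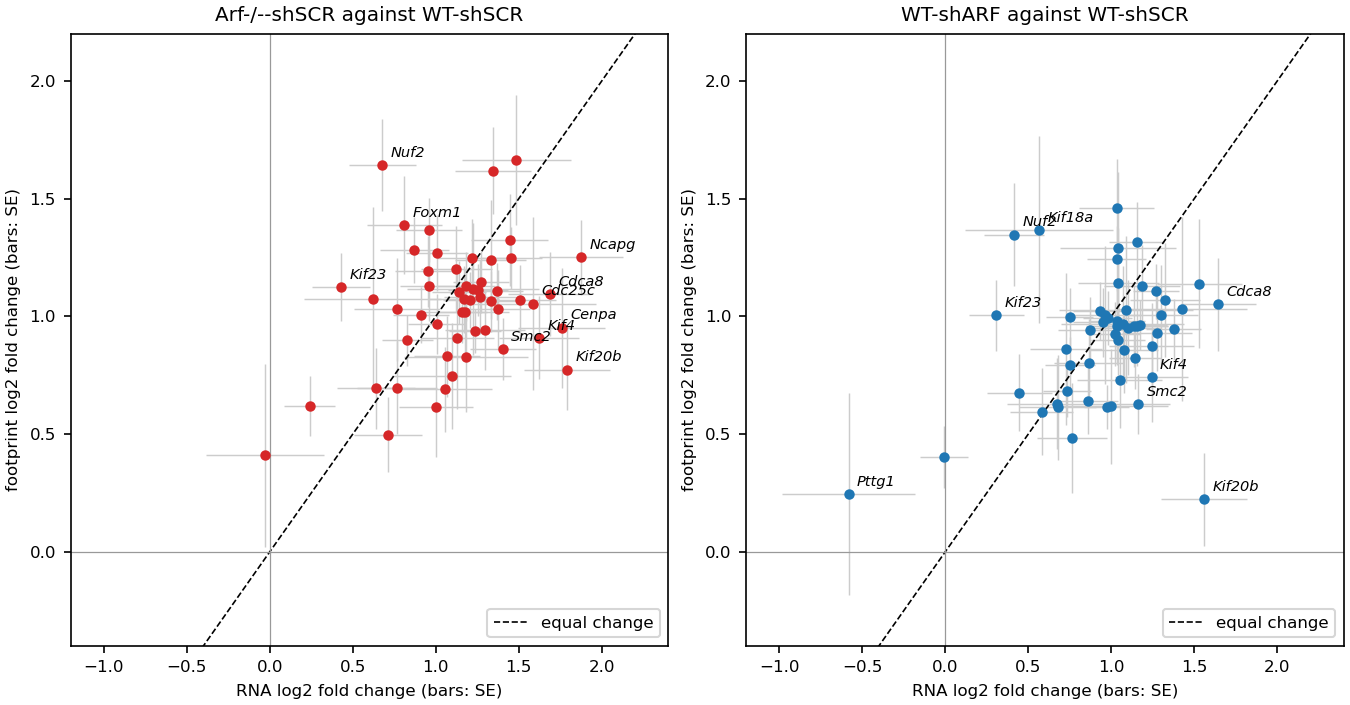
Footprint log2 fold change against RNA log2 fold change of the 54 members, with SE bars, after knockout (left) and in libraries labelled WT-shARF (right), and a dashed line of equal change. Members that differ by 0.5 or more are named, with Nuf2 and Kif23 above the line and Kif20b, Cdca8, Kif4 and Smc2 below it in both panels.

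In the control cells alone, footprints were set against RNA for the 53 members with at least 10 reads in each WT-shSCR library, all but Spc25. Their median log2 ratio of footprint CPM to RNA CPM was 0.17, with quartiles of -0.18 and 0.57, beside -0.04 over 8682 genes, and 17 members lay below the median of all genes. Per kilobase of coding sequence, their median RNA level was 23 CPM, beside 23.6 CPM over all genes. The highest ratios were those of Kif20b (1.63), Ndc80 (1.44) and Smc2 (1.38), and the lowest those of Nuf2 (-3.60), Mybl2 (-1.15) and Cdca3 (-1.02). The replicates gave 1.47 and 1.76 for Kif20b and -4.21 and -2.87 for Nuf2. Kif20b, with the highest ratio in control cells, was also the member whose TE estimate was lowest after knockout, and Nuf2, with the lowest ratio, the member whose estimate was highest, and these values share the WT-shSCR libraries.

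Set directly against the libraries labelled WT-shARF, the Arf-/--shSCR MEFs had few mitotic genes past the threshold. In RNA, 45 of 54 estimates lay above 0, with a median log2 fold change of 0.13, but 0 passed by edgeR or DESeq2, against 2.57% of 10632 genes called in either direction, and 5 were higher and 1 lower at an unadjusted p under 0.05 (9.26% and 1.85%, against 8% and 8.36% of all genes). In footprints, 44 lay above 0 with a median of 0.14, and 5 were called higher, against 3.93% of 10941 genes called higher. The 5 were Smc4 (log2 fold change 0.60, SE 0.11, adjusted p = 0.00165, edgeR), Top2a (0.32, SE 0.08, adjusted p = 0.0161), Kif20b (0.54, SE 0.15, adjusted p = 0.0265), Ube2c (0.39, SE 0.11, adjusted p = 0.0375) and Ccnb1 (0.32, SE 0.10, adjusted p = 0.0463). In RNA Smc4 was at 0.59 (SE 0.16, adjusted p = 0.066) and Ncapg at 0.63 (SE 0.19, adjusted p = 0.105). Without either WT-shARF footprint library 0 of the 5 were called, with 9 and 5 members at an unadjusted p under 0.05, without knockout replicate 1 Kif20b and Ube2c missed the threshold and without replicate 2 Ccnb1 did, DESeq2 called 2, Smc4 and Top2a, and the fit of all 3 groups called 3, Kif20b, Smc4 and Top2a.

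Genes that work beside the members were counted in 6 lists. The subunits and partners of the anaphase-promoting complex had 2 of 17 higher in RNA and 4 of 17 in footprints after knockout, against 3.94% and 9.57% of all genes, and 2 and 1 in WT-shARF, against 3.11% and 5.63%, with a median RNA change of 0.19 after knockout. Ube2s, the enzyme that extends its ubiquitin chains, was the clearest (0.68 in RNA, SE 0.15, adjusted p = 0.00557, edgeR). Of the MuvB, DREAM and NF-Y regulators, 0 of 14 passed in RNA after knockout and 3 of 15 in footprints, and 1 in each assay of WT-shARF. Tfdp1, a partner of E2F factors, was among the genes called. Of cohesin and its regulators, 3 of 15 rose in RNA and 6 of 15 in footprints after knockout, and 2 in each assay of WT-shARF, with Sgol2a, the shugoshin that protects centromeric cohesin, at 1.59 in RNA after knockout (SE 0.34). Of the constitutive centromere proteins, which stay on the centromere through the cycle, 2 of 16 rose in RNA and 1 of 16 in footprints after knockout, and 2 of 16 and 0 of 14 in WT-shARF, with Cenpp at 2.12 and Cenpi at 1.16 in RNA after knockout, on wide errors of 0.58 and 0.32.

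Over all genes tested, 420 of 10659 were called higher and 425 lower in RNA after knockout, and 1027 and 961 of 10737 in footprints. In WT-shARF these were 327 and 438 of 10503 in RNA, and 580 and 567 of 10307 in footprints. A further 62 genes of G2 and M phase were tested. After knockout 26 rose and 1 fell in RNA, and 34 rose and 1 fell in footprints, with median changes of 0.86 and 0.74. In WT-shARF 24 rose and 2 fell in RNA, and 20 rose and 0 fell in footprints. Tacc3, a spindle protein, was among the 4 smallest p-values in each of these (1.58, SE 0.18, adjusted p = 1.65e-05 in RNA after knockout, edgeR), and so was Aspm, a spindle pole protein, in all but the footprints after knockout (1.64, SE 0.23, in RNA). Psrc1, a spindle gene also known as a p53 target, was the one that fell after knockout, and is named after its values were seen. It fell by 1.35 in RNA (SE 0.26, adjusted p = 0.00251) and by 0.89 in footprints. Of 30 S phase genes, 12 rose in RNA and 18 in footprints after knockout, and 8 and 11 in WT-shARF, with none lower, and the median changes after knockout were 0.63 and 0.62. Tk1, the thymidine kinase of S phase, rose by 1.14 in RNA (SE 0.19), and Rrm1, a subunit of ribonucleotide reductase, by 0.79 in footprints (SE 0.09, adjusted p = 2.5e-08).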

How the data were processed

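RNAseq and ribosome profiling of passage 4 MEFs gave 12 libraries, 2 per group and assay. The authors deposited read counts per gene, not normalized. Per the study's methods they clipped adapters, took out ribosomal and other noncoding RNA with Bowtie2, used TopHat for alignment to mm10 and HTSeq for counts over coding sequence, with UMI-tools and cutadapt also named. Whether reads were collapsed by molecular identifier is not given in the sources used here, and the example counting command names no strand option. The 5 rows that name no gene stayed out of library sizes: alignments that were not unique held 79.22% to 81.38% of RNAseq and 46.34% to 52.92% of ribosome profiling reads, and reads on no feature 14.9% to 15.5% and 9.407% to 11.99%.

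Genes were filtered with filterByExpr, scaled by TMM and tested with the quasi-likelihood F test of edgeR 4.0.16 in R 4.3.3, with p-values adjusted by Benjamini-Hochberg over all genes tested and a threshold of 0.05. RNA and footprints were each fitted on the 4 libraries of 2 groups, and TE as the interaction of assay and group on 8. Intervals are 95%. DESeq2 1.42.0, the study's tool, other scalings, other filters, all groups in one fit, the replicate number as a block and leaving out each library were alternatives. The RNA, footprint and TE fits of knockout against WT-shSCR were also run on simulated counts with the same dispersion for all genes. Fits with WT-shARF were not simulated. The members and lists were chosen with earlier results of these data known. Named with values were anchors of each role, the 10 called members of smallest p and the 2 highest and 2 lowest in each comparison, and up to 4 called genes of a related list. Other members are named where a count or exception concerns them.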

Additional observations from a re-analysis of the deposited data

Results flagged for a closer look

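In 5 members the effects of the knockout and of the libraries labelled WT-shARF, both taken against WT-shSCR, differed in footprints by a direct test between Arf-/--shSCR and WT-shARF MEFs. The footprint log2 fold change of knockout over WT-shARF was 0.60 for Smc4, 0.32 for Top2a, 0.54 for Kif20b, 0.39 for Ube2c and 0.32 for Ccnb1. The 5 were picked by this same test, of which DESeq2 called only Smc4 and Top2a. Both knockout replicates lay above both WT-shARF replicates for each, as for 25 of 54 members and 2758 of 10941 genes tested. In RNA none of the 5 passed the same test (edgeR, adjusted p = 0.066 for Smc4), and a difference in WT-shARF rests on libraries in which Cdkn2a went against the label.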

How the results depend on the processing

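Against WT-shSCR the members' median log2 fold change ranged over the alternatives run from 1.128 to 1.231 in RNA and 0.976 to 1.162 in footprints after knockout, and from 1.004 to 1.07 and 0.854 to 1.028 in WT-shARF. The median TE change ranged from -0.171 to 0.007 after knockout, so its sign turned, and from -0.18 to -0.005 in WT-shARF. Leaving out 1 library in the fits of 2 groups gave 28 to 42 members higher in RNA and 0 to 48 in footprints after knockout, 35 to 41 and 37 to 45 in WT-shARF, 0 to 1 in either TE comparison, and 0 to 1 in RNA and 0 to 4 in footprints between knockout and WT-shARF. With all groups in one fit, chosen after seeing the data, the ranges were 41 to 46, 43 to 49, 23 to 31, 39 to 45, 0 to 1 and 1 to 2. The 0 in footprints after knockout came without WT-shSCR replicate 1 or 2, where the smallest adjusted p of a member was 0.0849 or 0.0724, the 28 came without either RNA replicate of WT-shSCR, and the 23 came without its RNA replicate 1. The cause was not tested. Without a filter on low counts, 1 member (Nuf2) was called in each TE comparison and 1 (Smc4) in RNA between knockout and WT-shARF. There, DESeq2 called 2 members in footprints and all groups in one fit 3, against 5.

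Within an assay, deviations of replicates with equal numbers correlated little between groups (r from -0.029 to 0.023 over filtered genes). Over genes with at least 30 counts in every library, r was 0.054 for 1 RNA pair of groups and -0.118 for the other 2. It was 0.029 to 0.033 in footprints. Pairing of RNA with footprint libraries by replicate number, which bears on TE, was not tested. With the replicate block the counts were 45 and 53 after knockout, 49 in footprints and 45 in RNA of WT-shARF, 0 in TE after knockout, 1 in TE of WT-shARF (Nuf2), and 0 in RNA and 6 in footprints between knockout and WT-shARF. A crossed replicate block, added after seeing the data, called 4 in RNA of that last comparison.

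Among the named members recomputed singly, directions turned for 3 genes, in estimates that passed no test. With 1 library left out, Pttg1 ranged from -0.19 to 0.21 (0.22 with all groups in one fit) in RNA after knockout, from 0 to 0.74 in footprints after knockout, and from -0.32 to 0.61 in footprints of WT-shARF. Bub3 in RNA of WT-shARF ranged from -0.08 to 0.09, with 0.03 without WT-shARF replicate 1, and stood at 0 with at least 10 counts in every library. Cenpa between knockout and WT-shARF in footprints ranged from -0.42 to 0.11. With 2 libraries a group, an exact permutation test of a single gene cannot go below 0.33.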
